A study of Mus musculus with 4 samples.

Results

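The 9 genes *Mbp*, *Mog*, *Mag*, *Mobp*, *Cnp*, *Mal*, *Cldn11*, *Opalin* and *Ermn*, which encode proteins of central myelin and of the mature oligodendrocytes that make it, were taken by symbol from the gene count tables of mouse prefrontal cortex (PFC). All 9 were found among the 23420 gene symbols, and all 9 passed the filter on low counts that left 16232 genes to test. The tables hold 2 control samples and 2 *Ash1L* shRNA samples from wild-type C57BL6/J mice, described for the series as 6 to 8 weeks old. Control mice received an AAV9 carrying GFP, which the paper describes as a scrambled shRNA AAV, and knockdown mice received a GFP-tagged AAV9 with an shRNA against *Ash1L*, a histone methyltransferase gene. The U6 promoter that drives the shRNA is active in most cell types, so the promoter itself does not restrict the knockdown to oligodendrocytes or to neurons. Which cells are knocked down also depends on which cells the virus infects. The paper shows infected PFC neurons, and whether oligodendrocytes were infected was not tested here. Punches with GFP fluorescence from 3 mice were pooled for each sample according to the methods, whereas the series description lists 2 control and 3 *Ash1L* shRNA mice. The punches are bulk tissue. With 2 samples a group, a permutation test cannot give a two-sided p below 0.333, and the tests below rest on a spread estimated across all genes.

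Myelin is a stack of oligodendrocyte membrane wrapped around axons, in which the cytoplasmic faces are zipped together by basic proteins while other proteins hold the outermost and innermost turns, the open cytoplasmic channels and the seams between turns. Its genes come on together as precursor cells leave the cell cycle and mature, under transcription factors that include SOX10, OLIG2 and MYRF. In the adolescent PFC myelination is still under way, and the punches can also reach the white matter beneath the cortex, where oligodendrocytes are dense.

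Counts summed to 14251190 in control 1 and 35764874 in control 2, with the *Ash1L* shRNA samples between them. The 9 genes took between 0.187% and 0.216% of them, and counting error was between 0.484% of the value for *Mbp* in control 2 and 9.28% for *Opalin* in *Ash1L* shRNA sample 2, where it had its lowest count. *Ash1l* itself had 245 and 290.1 CPM (counts scaled to a library of 1000000 after TMM normalization) in the controls and 216 and 138 CPM in *Ash1L* shRNA samples 1 and 2. Its log2 fold change was -0.60 (SE 0.22, unadjusted P = 0.0362 and adjusted p = 0.275 in edgeR's quasi-likelihood test). That met the limits for a DOWN call given below, and the *Ash1l* level was lower in sample 2 than in sample 1. The paper also reports lower *Ash1L* mRNA by quantitative PCR and lower protein by Western blot in the PFC of knockdown mice.

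The 250 bases before the RefSeq start site are shown for 4 of the 9 genes, in the direction of transcription. *Opalin* and *Mal* are the 2 genes called DOWN below, and *Cldn11* and *Ermn* are 2 whose samples overlapped between the groups. None of these windows overlaps an annotated exon. Capitals mark ACAAAG or ACAATG on either strand (reverse complements CTTTGT and CATTGT), the letters typical of sites for SOX proteins. The windows lie in GRCm38.p6 at chr19:41077114-41077363 (minus strand), chr2:127656696-127656945 (minus strand), chr3:31149670-31149919 (plus strand) and chr2:58052865-58053114 (minus strand).
Opalin: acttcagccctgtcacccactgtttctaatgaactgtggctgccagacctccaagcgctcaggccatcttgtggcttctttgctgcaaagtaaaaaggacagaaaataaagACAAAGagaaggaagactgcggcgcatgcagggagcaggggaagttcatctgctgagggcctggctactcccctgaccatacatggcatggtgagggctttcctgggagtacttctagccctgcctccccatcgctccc
Mal: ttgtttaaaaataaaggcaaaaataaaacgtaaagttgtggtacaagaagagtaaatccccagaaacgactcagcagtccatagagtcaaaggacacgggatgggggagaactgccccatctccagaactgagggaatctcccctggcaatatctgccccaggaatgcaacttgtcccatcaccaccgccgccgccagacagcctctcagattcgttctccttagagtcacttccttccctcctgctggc
Cldn11: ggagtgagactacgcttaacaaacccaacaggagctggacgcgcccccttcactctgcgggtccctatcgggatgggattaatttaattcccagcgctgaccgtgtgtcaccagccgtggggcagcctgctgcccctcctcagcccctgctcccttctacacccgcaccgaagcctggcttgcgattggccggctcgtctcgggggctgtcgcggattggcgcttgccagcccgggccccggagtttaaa
Ermn: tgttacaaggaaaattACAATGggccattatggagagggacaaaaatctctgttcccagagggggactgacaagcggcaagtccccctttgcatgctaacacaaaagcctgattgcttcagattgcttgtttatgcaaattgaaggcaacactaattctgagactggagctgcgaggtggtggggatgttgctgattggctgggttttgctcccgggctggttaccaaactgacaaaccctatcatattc

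*Opalin* had 1 ACAAAG, starting 139 bases before the start site, and *Ermn* had 1 ACAATG, starting 234 bases before it. The windows of *Mal* and *Cldn11* held neither motif. An entry was found for 8 of the 9 genes, with 10 windows in all, and 5 of the 8 genes had at least 1 of the motifs. *Mobp* had the most, with 6 copies of ACAAAG. Over 32851 windows of the same length, 16.5% held ACAAAG and 25.2% held either motif. These shares count single windows, whereas the 5 of 8 counts genes, and *Mag*, which had a motif, had several windows. Of the pair called DOWN, one thus held a motif and the other did not.

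Of the 9 myelin genes, 2 were called DOWN in *Ash1L* shRNA samples and 0 UP, with the limits of the study (an unadjusted P under 0.05 and a change of 1.2-fold or more) applied to edgeR's quasi-likelihood test. DOWN calls made up 8.28% of all genes tested and UP calls 8.61%. The called genes were *Opalin* and *Mal*, and the most abundant transcript, *Mbp*, had the same level in every sample to within a few percent. The fitted log2 fold change was below 0 for 8 of the 9, with a median of -0.26, against a median of -0.00273 over all genes tested, of which 8164 of 16232 were below 0. Those 8 stayed below 0 in all 9 alternative fits that kept the 4 samples, while *Mbp* was at -9.2e-05 with a looser filter. These fits share the same libraries, so the repeated sign is not separate evidence, and *Cldn11* turned to 0.19 without control 2. Adjusted over all genes tested, 0 of the 9 had a p under 0.05, as had 0.00616% of all genes tested, and the adjusted p ran from 0.260 to 0.993. At an unadjusted p under 0.05 there were 2 of the 9 by edgeR's quasi-likelihood test, where 2746 of the 16232 genes tested were. The likelihood ratio test of edgeR and DESeq2 also gave 2, but they used the same 4 samples and are not separate evidence. In such bulk tissue, fewer oligodendrocytes and less RNA per oligodendrocyte cannot be told apart.

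The count of 2 rested on control 2, the deepest sample. Without it, 0 of the 9 were called DOWN, with *Opalin* at -0.76 (SE 0.38) and *Mal* at -0.32 (SE 0.17). The fold change of *Opalin* was thus little smaller and its SE larger, while that of *Mal* was smaller. Without *Ash1L* shRNA sample 1, 5 of the 9 were called DOWN, and *Opalin*, *Cnp* and *Mog* had an adjusted p under 0.05, as did 15.2% of all genes. The share of all genes called changed with the sample left out. It was 4.14% DOWN and 5.07% UP without control 1, 1.86% and 2.57% without control 2, 16.5% and 14.4% without *Ash1L* shRNA sample 1, and 5.05% and 6.25% without sample 2. With a limit of 1.5-fold, *Opalin* was the 1 gene of the 9 called DOWN, where 3.02% of all genes were.

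**Figure D1:**
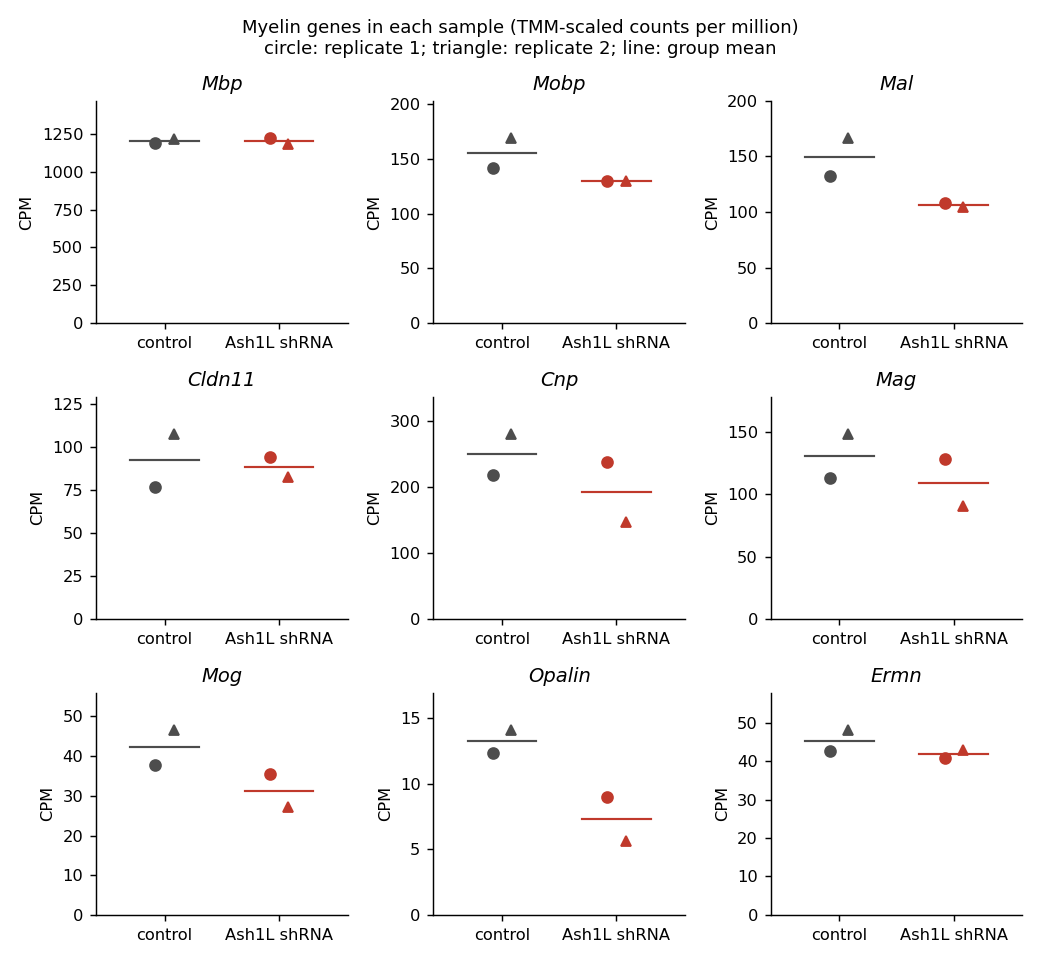
Level of each of the 9 myelin genes in each sample, in CPM (TMM-scaled, vertical axes from 0, a scale of its own for each gene), with circles for replicate 1, triangles for replicate 2 and a line at the mean of the 2 samples of a group. Both *Ash1L* shRNA samples lie below both controls for *Opalin*, *Mal*, *Mog* and *Mobp*, while the 4 *Mbp* values lie between 1186 and 1224 CPM.

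Per length of transcript, the 9 genes spanned a wide range of levels. Divided by kilobases of annotated exon (CPM per kb, mean of the 4 samples), *Mbp* was highest at 142, followed by *Cnp* at 60.8, *Cldn11* at 48.3, *Mal* at 46.0, *Mag* at 29.5, *Mog* at 21.6, *Mobp* at 20.8, *Ermn* at 11.99 and *Opalin* at 3.48. The ranges of *Cnp*, *Cldn11* and *Mal* over the samples overlapped, as did those of *Mag*, *Mog* and *Mobp*. Within every sample, though, *Cnp* was above *Mal*, and *Mag* was above *Mog* and *Mobp*. *Mbp*, *Ermn* and *Opalin* each stood clear of their neighbours in all 4 samples. The exon lengths join every annotated isoform, so levels of genes with many isoforms, such as *Mbp*, are understated on this scale.

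Among the proteins of compact myelin, *Mbp* encodes the basic protein that presses the cytoplasmic faces of the membrane together. *Mbp* (ENSMUSG00000041607) had 1190.4 and 1216 CPM in controls 1 and 2 and 1224 and 1186 CPM in *Ash1L* shRNA samples 1 and 2. The knockdown samples lay on either side of the controls, with group means of 1203 ± 18.1 and 1205 ± 26.8 CPM (SD, n = 2 each). Its log2 fold change was 0.0025, with an SE of 0.11 and an adjusted p of 0.993 in edgeR's test. Counts were summed over all isoforms of the locus, so a shift between isoforms would not be seen.

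*Mobp* (ENSMUSG00000032517, chromosome 9 from 120149707 to 120181484 in mm10), for a second small basic protein of compact central myelin, had 142 and 169 CPM in the controls and 129.5 and 129.7 CPM in the *Ash1L* shRNA samples. Both knockdown samples were lower than both controls and nearly equal to each other. The log2 fold change was -0.26 (SE 0.13, adjusted p = 0.340 in edgeR's test), or -0.38 without control 1 and -0.13 without control 2.

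*Mal* (ENSMUSG00000027375, chromosome 2 from 127633226 to 127656695) encodes a small proteolipid that spans the membrane 4 times and is found in the lipid-rich domains of myelin. It had 132 and 167 CPM in the controls and 108 and 105 CPM in the *Ash1L* shRNA samples, with group means of 149 ± 24.5 and 106 ± 2.16 CPM (SD, n = 2 each). The knockdown samples again agreed closely, and the gap to the nearer control was smaller than the gap between the controls. *Mal* was called DOWN with a log2 fold change of -0.49 (SE 0.14, adjusted p = 0.260 in edgeR's test). The fold change ran from -0.64 to -0.32 with each sample left out in turn, and the call was lost without control 2.

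*Cldn11* (ENSMUSG00000037625, chromosome 3 from 31149920 to 31164324), the claudin that forms the tight junction strands between turns of central myelin, had 77.0 and 108 CPM in the controls. Both *Ash1L* shRNA samples, at 94.0 and 82.4 CPM, fell within that range. The log2 fold change was -0.07 (SE 0.18, adjusted p = 0.865 in edgeR's test), and its direction turned to 0.19 without control 2 and 0.02 without *Ash1L* shRNA sample 2.

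Genes for the non-compact and surface parts of myelin differed more between the 2 *Ash1L* shRNA samples than those for compact myelin. From sample 1 to sample 2 the log2(CPM + 1) difference was -0.69 for *Cnp*, -0.49 for *Mag* and -0.38 for *Mog*, against -0.05 for *Mbp*, 0.0016 for *Mobp* and -0.04 for *Mal*. *Cnp* (ENSMUSG00000006782, chromosome 11 from 100574904 to 100591729), for the phosphodiesterase that keeps cytoplasmic channels open, had 218 and 281 CPM in the controls, 238 CPM in *Ash1L* shRNA sample 1 and 147 CPM in sample 2. Sample 1 lay between the controls and sample 2 below both, and the log2 fold change was -0.37 (SE 0.25, adjusted p = 0.473 in edgeR's test). It was -0.77 without *Ash1L* shRNA sample 1 and -0.07 without sample 2.

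*Mag* (ENSMUSG00000036634, chromosome 7 from 30899176 to 30914873), for a sialic acid-binding adhesion protein of the turn next to the axon, showed the same order. It had 113 and 149 CPM in the controls, 128 CPM in *Ash1L* shRNA sample 1 and 90.8 CPM in sample 2, with a log2 fold change of -0.26 (SE 0.21, adjusted p = 0.550 in edgeR's test) that was -0.53 without sample 1 and -0.03 without sample 2. *Mog* (ENSMUSG00000076439, chromosome 17 from 37010743 to 37023398), for an immunoglobulin-like protein of the outermost surface, had 37.8 and 46.7 CPM in the controls and 35.6 and 27.1 CPM in the *Ash1L* shRNA samples. Its groups did not overlap, sample 1 lay just under control 1, and the log2 fold change was -0.43 (SE 0.18, adjusted p = 0.301 in edgeR's test). It missed the DOWN call with an unadjusted P of 0.0536, and the fold change was -0.65 without sample 1 and -0.25 without sample 2.

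*Opalin* (ENSMUSG00000050121, chromosome 19 from 41061710 to 41077113), for a sialylated membrane glycoprotein of mature oligodendrocytes, had the largest fold change of the 9 genes and the lowest level. Its raw counts were 174 and 495 in the controls and 246 and 116 in *Ash1L* shRNA samples 1 and 2, or 12.3, 14.1, 8.98 and 5.60 CPM. The groups did not overlap, at 13.2 ± 1.26 and 7.29 ± 2.39 CPM (SD, n = 2 each), and sample 2 was again the lower. *Opalin* was called DOWN with a log2 fold change of -0.86 (SE 0.26, adjusted p = 0.260 in edgeR's test), between -1.25 and -0.56 with each sample left out in turn, and the call was lost without control 2.

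*Ermn* (ENSMUSG00000026830, chromosome 2 from 58045113 to 58052864) encodes ermin, a cytoskeletal protein of late oligodendrocyte differentiation. It had 42.5 and 48.2 CPM in the controls and 40.7 and 42.9 CPM in the *Ash1L* shRNA samples. The groups overlapped, and the log2 fold change was -0.12 (SE 0.13, adjusted p = 0.652 in edgeR's test), or -0.19 without control 1 and -0.03 without control 2. Exons of *Ermn* and of *Cnp* overlap those of genes on the opposite strand, *Galnt5* by 237 bases and *Dnajc7* by 154 bases, and the strand setting of the counting is not given in the sources used here.

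**Figure D2:**
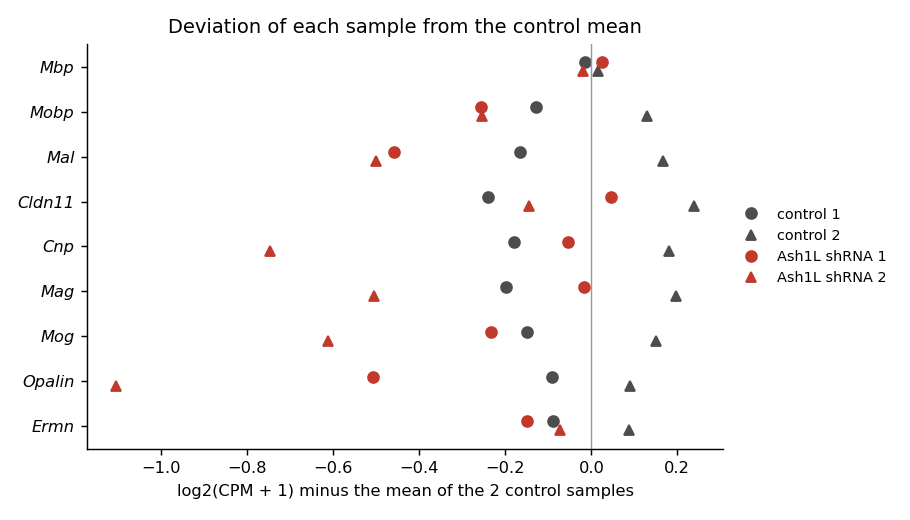
Deviation of each sample from the mean of the 2 control samples for the 9 myelin genes, as log2(CPM + 1) on the horizontal axis, with controls in grey, *Ash1L* shRNA samples in red, circles for replicate 1 and triangles for replicate 2. *Ash1L* shRNA sample 2 reaches -1.11 for *Opalin* and -0.75 for *Cnp*, and the 4 samples stay within 0.03 of 0 for *Mbp*.

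Across the 9 genes the samples had an order of their own within each group. All 9 were higher in control 2 than in control 1, by a median of 0.30 in log2(CPM + 1), and control 2 was the highest of the 4 samples for 8 of them. *Ash1L* shRNA sample 2 was lower than sample 1 for 7 of the 9, by a median log2 difference of -0.19 over the 9, and was the lowest of the 4 samples for 6. The gap between the controls was thus about as large as the median fold change between the groups. *Ash1L* shRNA sample 1 was below both controls for 5 of the 9 genes, between them for 3 and above both for 1. Sample 2 was below both for 7 and between them for 2. Over all genes tested, 37.5% lay below both controls in sample 1 and 41.7% in sample 2. The groups did not overlap for *Opalin*, *Mal*, *Mog* and *Mobp*, or 4 of the 9, all lower, where 26.8% of all genes tested were lower without overlap.

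Counts were also set against those of *Mbp* in the same library, a ratio that needs no scaling between libraries. For every 1000 counts of *Mbp* there were 10.3 and 11.6 counts of *Opalin* in the controls, and 7.34 and 4.72 in *Ash1L* shRNA samples 1 and 2. *Mal* had 111 and 137 in the controls and 88.0 and 88.2 in the *Ash1L* shRNA samples. These ratios, and those of *Mog* and *Mobp*, did not overlap between the groups, while those of *Cnp*, *Mag*, *Cldn11* and *Ermn* did. The log2 differences in the ratio were -0.90 for *Opalin*, -0.49 for *Mal*, -0.44 for *Mog* and -0.26 for *Mobp*. *Mbp* was nearly level in CPM over the 4 samples, so these ratios largely repeat the CPM values above and are not a separate test. The share of all genes whose ratio to *Mbp* did not overlap was not computed.

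**Figure D3:**
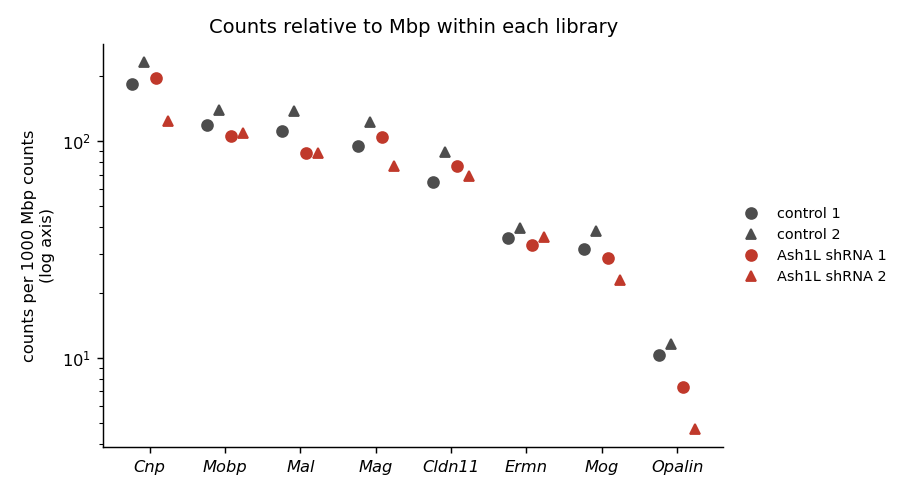
Counts of 8 of the myelin genes per 1000 counts of *Mbp* in the same library (log axis), with controls in grey, *Ash1L* shRNA samples in red, circles for replicate 1 and triangles for replicate 2. *Opalin* lies at 10.3 and 11.6 in the controls and at 7.34 and 4.72 in the *Ash1L* shRNA samples, while the *Cldn11* values of the groups overlap.

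Of 30 other genes of myelin and of mature oligodendrocytes, all of them tested, 3 were called DOWN, 1 was called UP and 26 were not called, with a median log2 fold change of -0.08. Of all genes tested, 8.28% were DOWN and 8.61% UP, so the DOWN count lay near that share and the UP count under it. Those called DOWN were *Car2*, for the carbonic anhydrase of oligodendrocytes, at -0.54 (SE 0.13), the septin gene *Sept4* at -0.48 (SE 0.14) and the tetraspanin gene *Cd82* at -0.52 (SE 0.18). *Cd9*, for another tetraspanin that other cell types also make, was called UP at 0.72 (SE 0.23), with 35.1 and 38.5 CPM in the controls and 74.8 and 46.4 CPM in the *Ash1L* shRNA samples. Without *Ash1L* shRNA sample 2, 2 of the 30 were DOWN and 4 UP, with a median of 0.08, and without sample 1, 7 were DOWN and 0 UP, with a median of -0.17. Without control 1, 1 was DOWN and 0 UP, and without control 2, 2 were DOWN and 0 UP. The adjusted p of *Car2*, *Sept4*, *Cd82* and *Cd9* ran from 0.253 to 0.262 (edgeR's quasi-likelihood test). The part of other cell types in the counts of these genes, DOWN or UP, was not tested.

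Myelin is rich in galactolipids, very-long-chain lipids and cholesterol, and genes for their synthesis were counted as separate lists. Of 7 genes for galactolipids and very-long-chain lipids, 1 was UP and 0 were DOWN. The UP gene was *Degs1*, for the desaturase that makes ceramide, with a log2 fold change of 0.40 (SE 0.11). The list's median was 0.09, but -0.13 with 2 DOWN and 1 UP without *Ash1L* shRNA sample 1, and 0.23 with 2 UP without sample 2. With either control left out, 0 of the 7 were called. Of 18 genes tested for cholesterol synthesis, 1 was DOWN and 4 were UP, with a median log2 fold change of 0.0044. Over all genes tested, 8.28% were DOWN and 8.61% UP. The median of the 18 was 0.13 without *Ash1L* shRNA sample 1 and -0.10 without sample 2. It was -0.07 without control 1 and 0.18 without control 2, and all of these calls were lost without control 2. *Fdft1*, for squalene synthase, was DOWN at -0.37 (SE 0.15), while *Pmvk*, for an early enzyme, was UP at 0.55 (SE 0.16) and the late-step genes *Hsd17b7* and *Sc5d* were UP at 0.49 (SE 0.16) and 0.34 (SE 0.12). *Hmgcs1*, the most abundant, had 339.7 and 439 CPM in the controls and 362 and 453 CPM in the *Ash1L* shRNA samples. Neurons and astrocytes also express the cholesterol genes.

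Genes of earlier stages of the lineage were counted in the same way. Of 9 precursor genes, 0 were DOWN and 3 were UP, with a median log2 fold change of 0.27. UP calls made up 8.61% of all genes tested. The called genes were *Pdgfra*, for the growth factor receptor that marks precursor cells, at 0.27 (SE 0.11), *Lhfpl3* at 0.46 (SE 0.15) and *Vcan*, for the matrix proteoglycan versican, at 0.77 (SE 0.20). *Pdgfra* had 88.5 and 82.3 CPM in the controls and 99.5 and 107 CPM in the *Ash1L* shRNA samples, so all knockdown values were higher by a small margin. Its call was lost with DESeq2, edgeR's likelihood ratio test, the looser filter and the replicate block, each leaving 2 of the 9 UP. The *Pdgfra* call was also lost without *Ash1L* shRNA sample 2 and without either control. Only *Lhfpl3* kept its call without control 1, and only *Vcan* without control 2. The list's median was 0.196 without control 1, 0.216 without control 2, 0.319 without *Ash1L* shRNA sample 1 and 0.205 without sample 2. *Ptprz1*, the most abundant precursor gene, had a log2 fold change of -0.10 (SE 0.13).

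Of 9 genes of newly formed oligodendrocytes, 0 were called in either direction, with a median of 0.01. The median was -0.34 without *Ash1L* shRNA sample 1, 0.41 without sample 2, -0.09 without control 1 and 0.16 without control 2. *Fyn*, for a kinase that acts early in myelination, was the most abundant at 125 and 111 CPM in the controls and 133 and 118 CPM in the *Ash1L* shRNA samples. Of 10 transcription factor genes tested, 1 was UP and 0 were DOWN, with a median of 0.17. *Sox10* had 19.7 and 17.5 CPM in the controls and 25.0 and 23.9 CPM in the *Ash1L* shRNA samples, and its log2 fold change was 0.40 (SE 0.14, adjusted p = 0.263 in edgeR's test). That call was lost with DESeq2, the tool of the study, and in a fit that blocked on replicate number. In each of these fits 1 of the 10 was DOWN and 0 were UP, where 6.35% of all genes were DOWN and 6.16% UP with DESeq2, and 6.28% and 6.48% with the block. The DOWN gene was *Sox8*, named after its values were seen, which missed the call in edgeR's quasi-likelihood test at -0.44 (SE 0.18). Leaving out *Ash1L* shRNA sample 1 also gave 1 DOWN and 0 UP, leaving out sample 2 gave 0 DOWN and 3 UP, and leaving out either control gave 0 calls. *Olig1*, the most abundant factor, had a log2 fold change of 0.06 (SE 0.17). The difference between the medians of the precursor and myelin genes was not tested.

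Genes for the contact between axon and myelin sheath, most of them neuronal, numbered 8, of which 2 were DOWN and 0 UP, with a median log2 fold change of -0.24. *Cntnap1*, for the axonal partner at the paranode, was DOWN at -0.59 (SE 0.16) and *Cntn2*, which anchors potassium channels beside it, at -0.28 (SE 0.11). *Nrcam*, the most abundant by mean CPM over the 4 samples though not per length, had a log2 fold change of -0.28 (SE 0.13) and was not called. DOWN calls made up 8.28% of all genes tested. The *Cntn2* call was lost with DESeq2, edgeR's likelihood ratio test, library-size scaling and the replicate block. That call was also lost without control 1 and without *Ash1L* shRNA sample 1. Both calls were lost without control 2. The list's median was -0.335 without *Ash1L* shRNA sample 1 and -0.183 without sample 2.

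**Figure D4:**
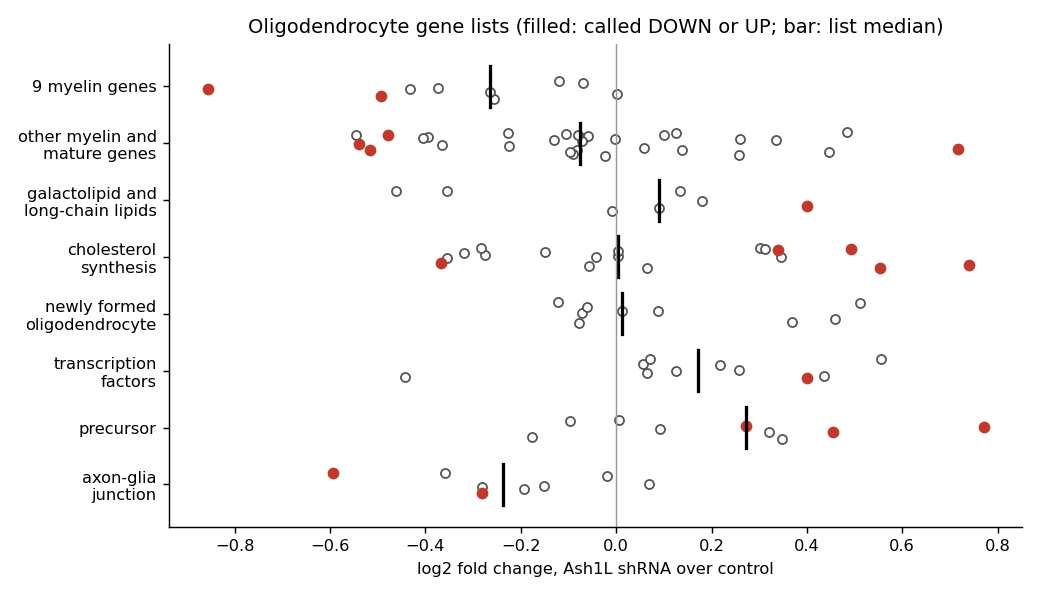
Log2 fold change (*Ash1L* shRNA over control, horizontal axis) of every tested gene in the 9 myelin genes and 7 related lists, with filled points for genes called DOWN or UP, open points for the others and a bar at the list median. The medians run from -0.26 for the 9 myelin genes to 0.27 for precursor genes, and the lists overlap.

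Markers of other cells were measured beside the myelin genes. The 9 myelin genes summed to between 1965 and 2198 CPM in the controls and to 2007 and 1817 CPM in *Ash1L* shRNA samples 1 and 2. The 8 neuron markers summed to between 7083 and 7446 CPM in the controls and to 6465 and 5349 CPM in the *Ash1L* shRNA samples, with 1 DOWN. Of these neuron markers, 6 had a log2 fold change below 0 and 2 above it, with a median of -0.22. The 8 astrocyte markers summed to between 5469 and 5779.6 CPM in the controls and to 4391 and 3257 CPM in the *Ash1L* shRNA samples, with 6 DOWN. The 8 microglia markers summed to between 749 and 777 CPM in the controls, 944 CPM in *Ash1L* shRNA sample 1 and 384 CPM in sample 2, with 0 called. The median log2 fold change of the microglia markers was -0.95 without *Ash1L* shRNA sample 1 and 0.22 without sample 2, against -0.19 with all 4 samples. Of all genes tested with the 4 samples, 8.28% were DOWN and 8.61% UP. No marker of these lists was at 0 in any sample, and their part in the values of the myelin genes was not tested.

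Endothelial markers summed to between 248 and 280.2 CPM in the controls and to 284 and 244 CPM in the *Ash1L* shRNA samples, with 0 of 7 called. Meningeal fibroblast markers, which would come with the covering of the brain, had 1 DOWN and 1 UP of 6 and summed to between 90.9 and 133 CPM in the controls and to 121 and 117 CPM in the *Ash1L* shRNA samples. Of 6 striatal neuron markers tested, 1 was DOWN and 3 were UP, where 8.28% of all genes were DOWN and 8.61% UP. The striatal markers summed to 158 and 161 CPM in the controls and 184 and 238 CPM in the *Ash1L* shRNA samples. With either control left out, 0 of the striatal markers were UP. Among them *Rgs9* had 18.0 and 22.2 CPM in the controls and 27.2 and 51.5 CPM in the *Ash1L* shRNA samples. The part of these markers in the values of the myelin genes was likewise not tested. Of the 5 peripheral myelin genes, 3 were tested and 0 were called.

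The genes outside the list whose profile over the 4 samples was most like the mean profile of the 9 myelin genes were *Ppt1*, *Prune*, *Zfp953*, *Ddah2* and *Ppp1r14a*. Their distances in centred log2(CPM + 1) ran from 0.00993 to 0.0269. *Ppt1* had 91.2 and 110.2 CPM in the controls and 88.7 and 73.3 CPM in the *Ash1L* shRNA samples, with a log2 fold change of -0.31 (SE 0.15). *Ppp1r14a* is one of the 30 other myelin and mature oligodendrocyte genes. Over 4 samples many genes come close to any profile.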

How the data were processed

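Stranded libraries of ribosome-depleted total RNA from PFC punches were read as paired ends. The authors used RNA STAR for alignment to mm10 and featureCounts for counting, and deposited 1 raw count per gene symbol and sample, not normalized. In the labels, Cutadapt and TopHat2 are named instead. The 2 samples of a group differed by more than counting error (chi-square per degree of freedom 15.5 for controls and 44.6 for *Ash1L* shRNA samples).

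Genes were filtered with filterByExpr, scaled with TMM and tested with edgeR 4.0.16 in R 4.3.3 (robust glmQLFit, then glmQLFTest). Group was the only term, and p-values of 16232 genes were adjusted by Benjamini-Hochberg. The study used DESeq2, which was run as an alternative (1.42.0). SE is the size of the log2 fold change over the root of its F statistic. CPM are counts per 1000000 of the TMM-scaled library. A pseudocount of 1 was added for log2(CPM + 1). Exon lengths and positions came from GENCODE vM21, and upstream sequences from RefSeq (GRCm38.p6). Scripts were tested on simulated counts. The genes named are the 9 myelin genes, *Ash1l*, up to 4 called genes and the most abundant gene of each other list, and the 5 genes nearest in profile. *Galnt5* and *Dnajc7* are named for their overlap. Some genes that this rule selects are not reported here. The 9 genes and the lists were chosen with earlier results of these data known. *Msmo1*, *Zfp24* and *Drd1* were on the lists and are not analysed here.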

Additional observations from a re-analysis of the deposited data

How the results depend on the processing

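Alternatives were DESeq2, edgeR's likelihood ratio test, 3 other scalings (RLE, library size, upper quartile), a filter that kept any gene with 1 count or more, one that asked for 10 counts throughout, the replicate number as a block, a 1.5-fold limit, and fits that dropped 1 of the 4 samples. *Mal* and *Opalin* were called DOWN in all 9 alternative fits that kept the 4 samples, and 0 of the 9 genes were UP under any setting. With the replicate block the count of DOWN genes was 2 and the median log2 fold change -0.26, so the block changed no call among the 9 genes. Same-numbered samples are different pools, and their deviations from the group means correlated at -0.15 across genes. A crossed pairing, added with the data known, gave 4 genes DOWN, with *Mog* and *Cnp* added and 10.7% of all genes DOWN. With a 1.5-fold limit, 1 gene was DOWN, *Opalin*, where 3.02% of all genes were.

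With each sample left out in turn, between 0 and 5 of the 9 genes were DOWN, between 0 and 3 had an adjusted p under 0.05, and the median log2 fold change ran from -0.52 to -0.13. The lone sample of a group is then assumed to vary like the others. *Cldn11* ran from -0.28 to 0.19 and *Mbp* from -0.025 to 0.027 over these fits, both changing sign, and *Mbp* was -9.2e-05 without the filter. The cause was not tested. The SE was largest for *Opalin* (0.26), whose lowest count was 116. It was nearly as large for *Cnp* (0.25), whose lowest count was 3050.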

Other observations

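Some genes of the oligodendrocyte lineage differed more within the groups than between them. *Klk6*, for a secreted protease of mature oligodendrocytes, had 1.42 CPM in control 1, 12.3 CPM in control 2, 11.7 CPM in *Ash1L* shRNA sample 1 and 1.69 CPM in sample 2. *Apod*, for a lipid carrier, followed the same order at 114, 186, 168 and 116 CPM. *Gpr17*, which marks cells that are leaving the precursor stage, had 66.7 and 68.9 CPM in the controls, 102 CPM in *Ash1L* shRNA sample 1 and 26.7 CPM in sample 2, a spread within the knockdown group that no control showed. These 3 genes come from the lists and were chosen after their values were seen. None of them was called DOWN or UP in edgeR's quasi-likelihood test on all 4 samples. The log2 fold change of *Gpr17* was -1.35 without *Ash1L* shRNA sample 1 and 0.59 without sample 2.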
